A study of Mus musculus with 4 samples.

Results

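Long non-coding RNAs (lncRNAs) were read in neural stem cells of the mouse, which divide and give rise to the cells of the brain. The genes described here were those that the deposited table types as lncRNA and that had at least 10 TPM (a unit that scales transcripts to their length and to the library total) in each of 4 libraries. Snhg genes, Gas5, H19 and Meg3 were left out. Of 55487 gene IDs, 9971 were typed lncRNA and 84 of these passed the minimum. With 10 Snhg genes and Gas5 set aside, 73 genes remained, here called the members. H19 and Meg3 lay under the minimum.

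The members were chosen by their levels, so the levels are a description. A minimum in every library also keeps out any gene that is near 0 in 1 of them, which limits how far a member can differ. For this reason the members are set beside the 7831 genes of any type, or the 7244 protein-coding genes, that passed the same minimum.

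Each group had 1 library. The control was a Tut1f/f culture that received empty lipid nanoparticles (LNP). The Tut1 KO, Trp53 KO and double KO groups were Tut1f/f, p53f/f and Tut1f/f;p53f/f cultures, respectively, that received LNP carrying mRNA for Cre recombinase (Cre-LNP), which removes DNA between loxP sites. All cells came from the neocortex of floxed embryos, and Cre was delivered to the culture and not driven by a promoter. The control differed from each other library in the nanoparticle cargo, and the p53f/f cells came from another floxed line than the Tut1f/f cells. There were no replicates, no test was run, and how far cultures of a group differ is not known.

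The targeted genes were read first. Tut1, the enzyme that adds uridines to U6 snRNA, stood at 12.2 TPM (control), 29.8 TPM (library labelled Tut1 KO), 12.5 TPM (Trp53 KO) and 13.7 TPM (double KO). It was not lower than in the control in either library of a Tut1 label, Tut1 KO or double KO, nor lower in double KO than in Trp53 KO. The loxP sites flank an exon of Tut1, and the study read the deletion from that exon. The level of the whole gene need not fall when an exon is lost, so it does not check the label, and the exon was not measured here. Directions for Tut1 rest on the labels, and libraries are called by them throughout. Trp53, which encodes p53, had 119.9, 100.4, 39.7 and 41.9 TPM in the same order. Xist, the X-linked lncRNA of X inactivation and no member, reached 188 TPM under the Tut1 KO label and 204 TPM in Trp53 KO, and lay at 0.01 TPM elsewhere. The Y-linked gene Ddx3y showed the opposite pattern. All 8 neural stem cell markers examined were at 10 TPM or more in every library. Markers of microglia, endothelium and fibroblasts each summed to less than 1 TPM per library, the neuron markers to between 22.6 and 29.96 TPM and the astrocyte markers, almost all from Aldh1l1, to between 82.2 and 93.5 TPM. The 5 oligodendrocyte lineage markers summed to between 1508 and 1694 TPM, nearly all from Olig1 and Olig2, while Pdgfra lay between 27.4 and 39.5 TPM, Sox10 between 5.81 and 9.81 TPM and Mbp between 0.94 and 2.50 TPM. Bulk values cannot tell fewer cells of a type from less RNA per cell.

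Long non-coding RNAs are transcripts that are not read into protein, and they act in different ways. Some form or join nuclear bodies, as Malat1 does in speckles. Some bind a protein or a microRNA (miRNA) many times over, as Norad does with Pumilio proteins. Others carry small RNAs in their introns or exons, or act on the gene beside them while they are transcribed.

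The sequences that mark the best understood members are given first. Gm3764 (chromosome 3, 88206813 to 88229959, plus strand, GRCm38) and C130071C03Rik (chromosome 13, 83721381 to 83884194, plus strand) contain the genes of miR-9, a miRNA enriched in the brain that acts in neural progenitors. Both hairpins (chr3:88215598-88215686 and chr13:83738814-83738885, RefSeq, GRCm38.p6, plus strand) give the same mature miRNAs, which are shown in capitals.
Mir9-1 hairpin, inside Gm3764: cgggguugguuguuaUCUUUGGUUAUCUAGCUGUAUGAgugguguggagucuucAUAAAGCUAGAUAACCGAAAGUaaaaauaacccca
Mir9-2 hairpin, inside C130071C03Rik: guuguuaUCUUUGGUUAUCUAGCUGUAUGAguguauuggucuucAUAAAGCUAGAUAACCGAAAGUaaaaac
miR-9-5p with its seed in capitals: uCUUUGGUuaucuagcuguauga
miR-9-3p with its seed in capitals: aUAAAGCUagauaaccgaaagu
The seeds, bases 2 to 8, differ between the 5p and the 3p arm, so the arms read different targets. The table held gene levels only, and mature miRNAs were not measured.

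Oip5os1, also called Cyrano, is known for a site that pairs almost in full with miR-7 and directs its breakdown. The site lies at chr2:119602137-119602161 (GRCm38, plus strand), in the longest annotated Oip5os1 transcript of 8300 bases. Of the 23 bases of miR-7a-5p, 21 pair with it across an internal loop of 4 bases in the lncRNA and 2 in the miRNA. Capitals mark the paired bases in the site, and the seed in the miRNA.
Oip5os1 site: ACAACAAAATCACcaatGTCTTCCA
miR-7a-5p: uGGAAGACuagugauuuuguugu

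Malat1 ends in a structure in which 2 U-rich motifs clasp an A-rich tract and protect an RNA that has no ordinary poly(A) tail. The stretch was found at chr19:5795982-5796077 (GRCm38, against strand), and capitals mark both U-rich motifs and the A-rich tract of 18 bases.
Malat1 end element: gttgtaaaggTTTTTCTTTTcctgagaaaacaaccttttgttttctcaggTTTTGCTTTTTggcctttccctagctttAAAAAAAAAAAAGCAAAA
Since the kit named in the labels selects poly(A) RNA, an RNA with such an end may be captured less fully than others, and Malat1 levels are read here between libraries only.

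Gm10076 (chromosome 14, 105681828 to 105682211, plus strand) is typed lncRNA but is a copy of the messenger of the ribosomal protein gene Rpl41. Its single exon of 384 bases aligned to the Rpl41 transcript without gaps, with 381 identical bases (99.2%). The differences are C1G, C127T and G234A, the Rpl41 base first and positions counted from the 5′ end of Gm10076. The longest identical run was 150 bases. The copy holds the whole coding region of Rpl41, 78 bases at chr14:105681869-105681946, printed with its start and stop codons in capitals.
Gm10076 stretch: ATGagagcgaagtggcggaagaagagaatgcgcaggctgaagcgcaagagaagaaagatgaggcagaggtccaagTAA

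The members made up a small and uneven part of the transcriptome. They held 0.556% of all TPM in the control, and 0.488% (Tut1 KO label), 0.495% (Trp53 KO) and 0.489% (double KO) in the other libraries. The mean level of a member had a median of 23.7 TPM, against 36.6 TPM for protein-coding genes past the same minimum. Of the 73 members, 29 had a mean between 10 and 20 TPM and 11 had a mean of 100 TPM or more. The 5 highest members took between 46.9% and 50.1% of the TPM of all members.

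**Figure D1:**
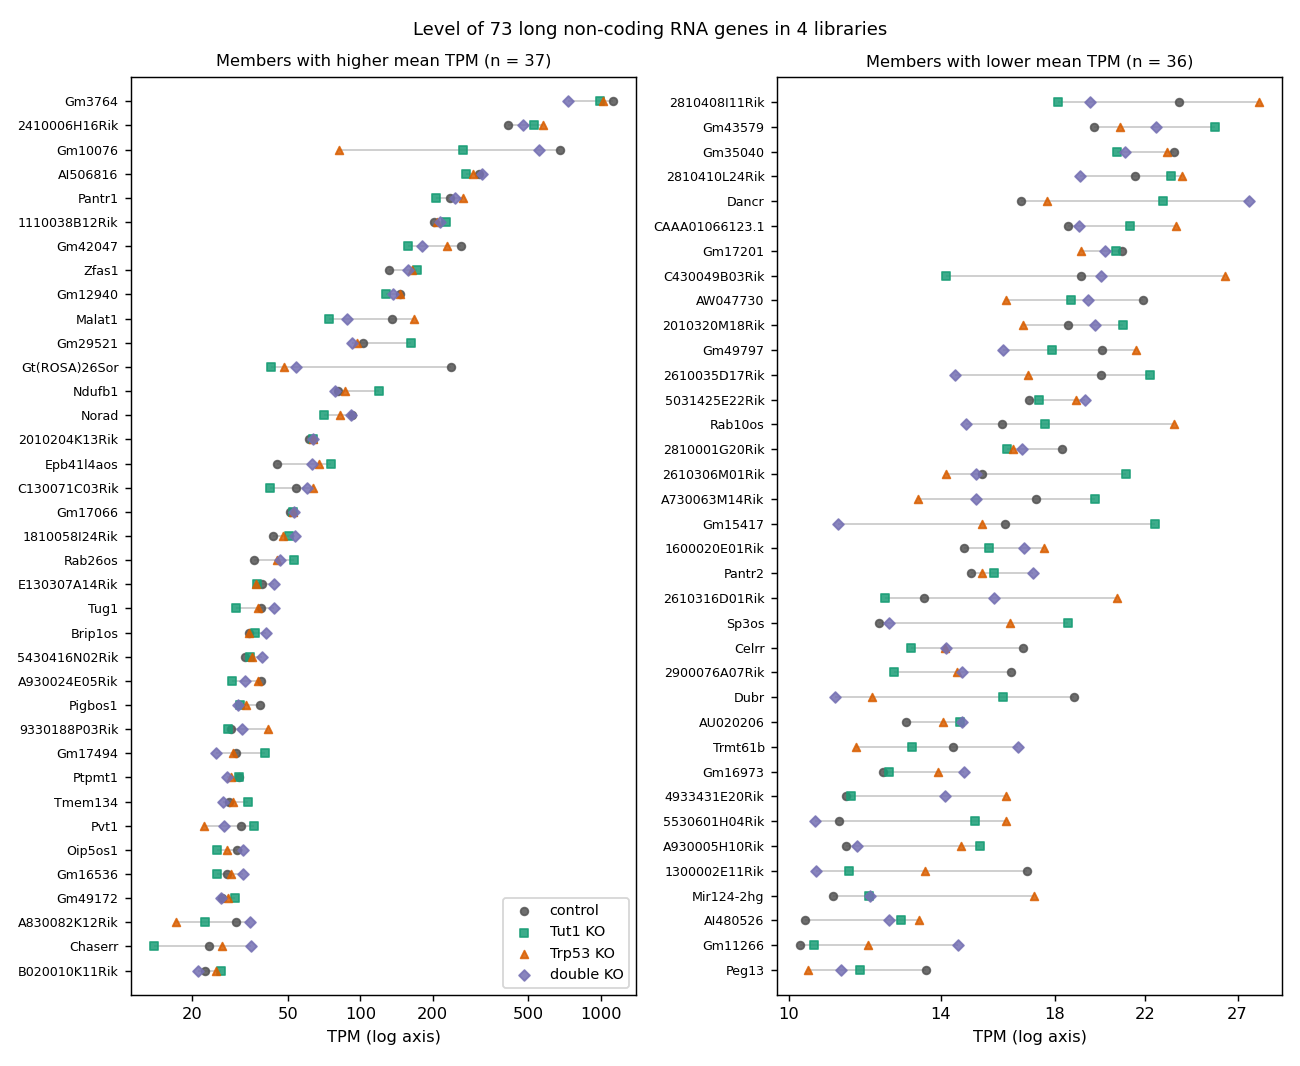
TPM (log axis) of each of the 73 members in each of the 4 libraries (control, Tut1 KO label, Trp53 KO, double KO), 1 point per library, ordered by mean level in 2 panels with different axes. Grey lines join the lowest and highest library. Measured as a ratio of levels, Gm10076, Gt(ROSA)26Sor and Chaserr have the widest lines, all in the left panel.

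Gm3764, the miR-9 host shown above, was the highest member in every library. Its level was 1129 TPM in the control, 994 TPM under the Tut1 KO label, 1023 TPM in Trp53 KO cells and 732 TPM under the double KO label. The double KO library was the lowest, by 0.62 on the log2(TPM + 1) scale against the control. All differences below are on this scale unless TPM is written. C130071C03Rik, the other miR-9 host among the members, had 54.0, 42.1, 63.5 and 60.0 TPM in the order control, Tut1 KO, Trp53 KO, double KO, which is kept from here on. It was lowest in the library labelled Tut1 KO. Another host, Mir9-3hg, was just outside the rule with 13.6, 8.63, 12.4 and 11.7 TPM.

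The region before the RefSeq start of Gm3764 is shown because it belongs to the highest member and holds the CCAAT box, a promoter motif bound by the factor NF-Y, 4 times. This start lies inside the annotated span of Gm3764 given above, so the region is not upstream of the whole annotated gene. Capitals mark CCAAT on either strand in the 300 bases at chr3:88214232-88214531 (RefSeq, GRCm38.p6, plus strand).
Gm3764 promoter: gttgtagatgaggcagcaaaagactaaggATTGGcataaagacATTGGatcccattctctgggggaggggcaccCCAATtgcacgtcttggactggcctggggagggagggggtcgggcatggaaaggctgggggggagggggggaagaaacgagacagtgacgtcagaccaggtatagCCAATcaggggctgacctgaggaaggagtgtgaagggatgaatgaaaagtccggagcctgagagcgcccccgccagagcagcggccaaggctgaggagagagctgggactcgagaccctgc
Promoter windows of this size were found in the RefSeq table for 45 members. CCAAT, on both strands, stood in 53.3% of these members and in 41.1% of all 27025 genes of the table. TATAAA stood in 8.89% and 15.7%. The windows of members had a median GC content of 59.3% and a median ratio of observed to expected CpG of 0.73, against 52.7% and 0.38 over all windows. A match is a run of letters, not a shown binding site. All genes of that table were used, expressed here or not, and no set past the same TPM minimum was compared. It is therefore not known whether these gaps are particular to the members.

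Among the 10 highest members, Pantr1 is a neural RNA whose gene neighbours the cortical transcription factor gene Pou3f3. It had 236, 207, 268 and 246 TPM. Its neighbour Pantr2 was lower throughout, with 15.0, 15.8, 15.3 and 17.2 TPM. Both varied little, by at most 0.37 for Pantr1 and 0.19 for Pantr2 over the 4 libraries. AI506816 had 311, 274, 293 and 319 TPM and differed by at most 0.22. Gm12940, which shares exon bases with the RNA-binding protein gene Sfpq, had 146.4, 128, 145.7 and 137.3 TPM. Gm42047 had 262, 158, 228 and 181 TPM, and both libraries of the Tut1 label were its lowest.

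Members varied between libraries about as much as other genes. The range over the 4 libraries had a median of 0.40 for members and 0.35 for protein-coding genes past the same minimum. It was under 0.5 for 43 members and at least 1 for 4 members (5.48%, against 3.74% of the protein-coding genes). The 4 were Gm10076, Gt(ROSA)26Sor, Chaserr and Malat1. The flattest member was the X-linked 2010204K13Rik, with 61.0, 63.5, 63.8 and 63.4 TPM, a range of 0.06. It was followed by Gm17066, with 50.7, 52.2, 52.4 and 53.2 TPM, of which 37.1% of the exon bases are shared with Rbm26. The ranges of Gm17201, 2810001G20Rik and 1110038B12Rik were 0.12, 0.16 and 0.16.

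Differences with the Tut1 label were read in 2 contrasts that share no library: Tut1 KO against control, where Trp53 was intact, and double KO against Trp53 KO, where it was deleted. A contrast is the first library less the second, and a member was called at a difference of at least 1 in size. In Tut1 KO against control, 2 of 73 members were called, both lower, where 1.77% of the 7831 genes were called and 1.05% were called lower. In double KO against Trp53 KO, 1 member was called, higher, where 1.37% of genes were called and 0.549% were called higher. The median difference of the members was 0.03 in the first contrast and -0.06 in the second, whereas the medians over all genes were -0.08 and 0.05. Above 0 were 53.4% and 46.6% of the members, and 40.1% and 59.6% of all genes.

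For the Trp53 label, Trp53 KO against control and double KO against Tut1 KO were read, again without a shared library. In Trp53 KO against control, 2 members were called lower, where 1.51% of all genes were called in either direction and 0.69% lower. In double KO against Tut1 KO, 2 were called higher, where 1.63% were called in all and 0.868% higher. With the median of all genes set to 0 this became 1 higher and 1 lower, and under quantile normalization 2 higher and 1 lower, the lower member being Gm15417 in both. The members had medians of 0.05 and 0.02, and all genes -0.05 and 0.08. In double KO against control, 1 member was called lower, where 1.57% of genes were called and 0.945% were called lower. Counts this small lie near the background in each contrast. The called members were 3 genes, Gt(ROSA)26Sor, Gm10076 and Chaserr. At 0.58, 7, 5, 6, 8 and 6 members passed in the 5 contrasts as ordered above, where 8.52%, 5.12%, 5.22%, 7.51% and 5.12% of all genes did.

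**Figure D2:**
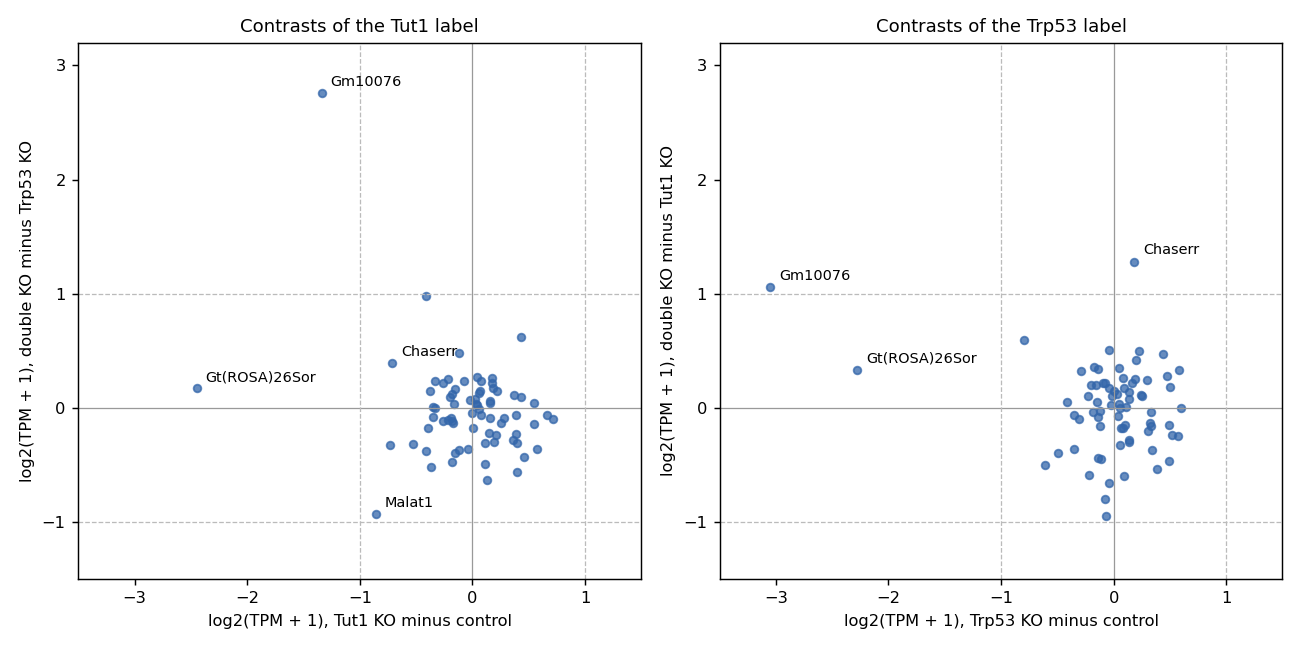
Differences of log2(TPM + 1) of the 73 members in the 2 contrasts of the Tut1 label (left) and the 2 contrasts of the Trp53 label (right), 1 point per member, with dashed lines at -1 and 1. Gm10076 lies in opposite directions in both panels, Malat1 at -0.86 and -0.93 in the left panel, and most other members within 0.5 of 0.

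Gt(ROSA)26Sor (chromosome 6, 113067428 to 113077333, against strand) is the non-coding transcript of the Rosa26 locus, which is active in most mouse tissues and is widely used as a site for transgenes. The control reached 238 TPM, whereas the Tut1 KO label gave 42.7 TPM, Trp53 KO 48.0 TPM and double KO 54.1 TPM. The control stood alone above the 3 Cre-LNP libraries, which lay close together. Its differences were -2.45 in Tut1 KO against control, -2.28 in Trp53 KO against control and -2.11 in double KO against control, contrasts that share the control library. Between Cre-LNP libraries it differed by 0.17 in double KO against Trp53 KO and by 0.33 in double KO against Tut1 KO. With 1 control library, the cargo of the nanoparticle and the library itself cannot be told apart.

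The neighbours of Gt(ROSA)26Sor did not share this pattern. Setd5, whose start lies within 2000 bases on the other strand, had 28.3, 18.2, 28.4 and 65.6 TPM, and the double KO library was its highest. Thumpd3, whose exons overlap Gt(ROSA)26Sor on the other strand, had 41.5, 39.8, 42.4 and 43.1 TPM, with all libraries close together.

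Gm10076, the Rpl41 copy shown above, reached 677 TPM in control cells, 266 TPM under the Tut1 KO label, 81.1 TPM in Trp53 KO cells and 555 TPM under the double KO label. The control and double KO libraries were high and the others low. Its differences were -1.34 and 2.76 in the contrasts of the Tut1 label, and -3.05 and 1.06 in those of the Trp53 label. Rpl41 itself had 1999, 2096, 2408 and 1848 TPM, and was lower in the control and double KO libraries than in the others. The summed TPM of both was 2677, 2362, 2490 and 2403, and the sum differed by -0.18 to 0.02 in the 5 contrasts. The share of Gm10076 in the sum was 25.3% in control cells and 3.26% in Trp53 KO cells. Reads from near-identical copies can be divided between them in more than 1 way, so the level of Gm10076 on its own is uncertain.

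Chaserr (chromosome 7, 73539203 to 73558395, against strand) lies upstream of the chromatin remodeller gene Chd2 and is known to hold its expression down in cis. Control cells held 23.4 TPM of it, those under the Tut1 KO label 13.9 TPM, Trp53 KO cells 26.6 TPM and those under the double KO label 35.2 TPM. It was called in double KO against Tut1 KO (1.28), and differed by -0.71 in Tut1 KO against control and 0.39 in double KO against Trp53 KO. Chd2 had 20.3, 16.2, 18.1 and 16.0 TPM, and its lowest libraries were the lowest and the highest of Chaserr. Of the exon bases of Chaserr, 30.5% are shared with Chd2 in the annotation, so these values are not fully separate.

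**Figure D3:**
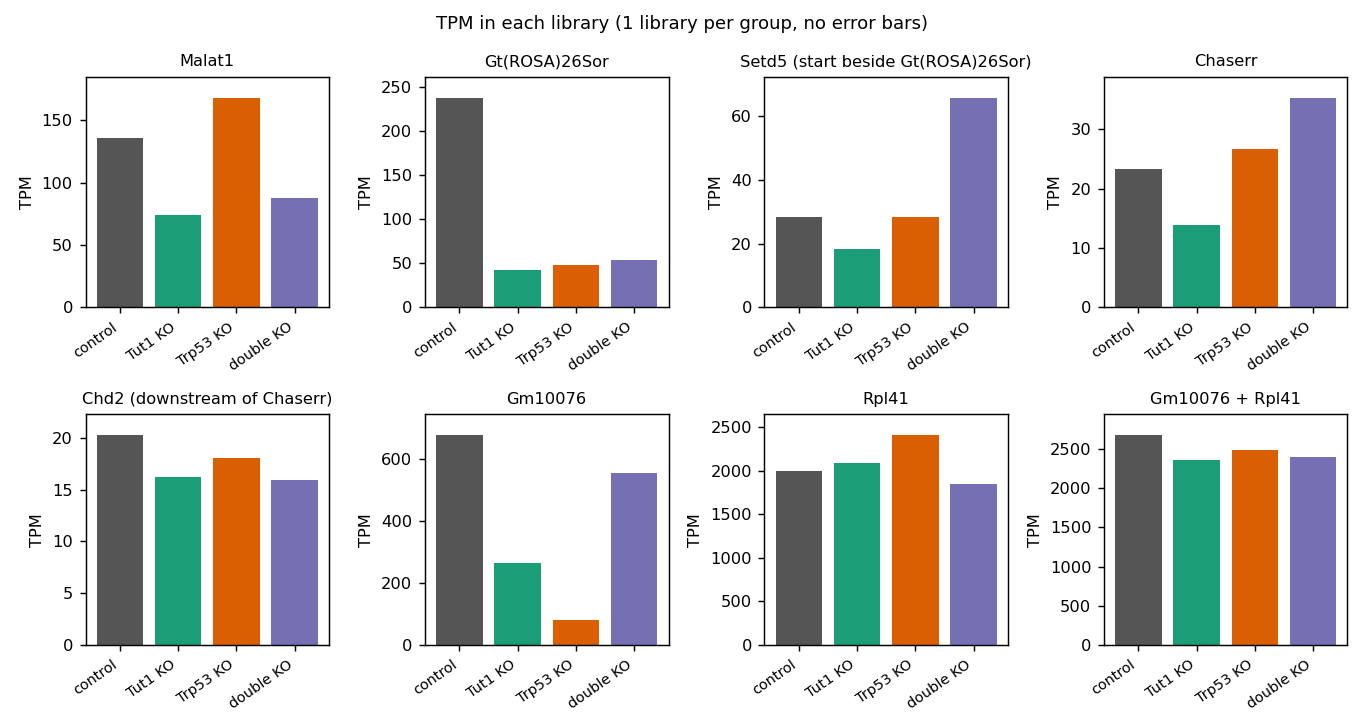
TPM in each library (bars, 1 library per group, axes from 0) for Malat1, Gt(ROSA)26Sor and its neighbour Setd5, Chaserr and Chd2, and Gm10076, Rpl41 and their sum. Gt(ROSA)26Sor is high in the control only, at 238 TPM, whereas the sum of Gm10076 and Rpl41 stays between 2362 and 2677 TPM.

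Malat1, the abundant RNA of nuclear speckles, did not reach the threshold in either contrast of the Tut1 label, but no other member differed as far in the same direction in both. With Trp53 intact its level was 135.8 TPM in control cells and 74.4 TPM under the Tut1 KO label, and with Trp53 deleted 167.9 TPM in Trp53 KO and 87.8 TPM under the double KO label. Both libraries of the Tut1 label lay below both others. The differences were -0.86 and -0.93 in the contrasts of the Tut1 label, and 0.30 and 0.24 in those of the Trp53 label.

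By at least 0.3 in the same direction in both contrasts of the Tut1 label, 5 members were lower (6.85%) and 1 was higher (1.37%). Over all genes the shares were 2.54% and 1.99%. The lower members were Malat1, Gm42047, 2810408I11Rik, C430049B03Rik and 1300002E11Rik. These Riken genes, and others of their kind below, are named after their values were seen. 2810408I11Rik had 23.7, 18.1, 28.3 and 19.5 TPM, and C430049B03Rik 19.1, 14.1, 26.3 and 19.97 TPM. For C430049B03Rik the double KO library did not lie below the control, so its groups overlapped. 1300002E11Rik had 16.9, 11.4, 13.5 and 10.6 TPM. The higher member was Dancr, a host of Snora26, with 16.7, 22.9, 17.7 and 27.7 TPM. In either direction and by any size, 17 members were lower and 17 higher in both contrasts, each 23.3%, beside 23.0% and 22.7% of all genes.

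With no size limit, 9 members were higher and 10 lower in both libraries of the Tut1 label than in both others. These are 12.3% and 13.7% of the members, where 16.0% and 16.2% of all genes did so.

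Of the 11 listed nuclear scaffold RNAs found in the table, Malat1 and Tug1 were members. Tug1, which binds chromatin regulators, had 38.6, 30.5, 37.4 and 43.9 TPM and differed by -0.33 and 0.23 in the contrasts of the Tut1 label. Neat1, the RNA on which paraspeckles are built, lay between 0.29 and 0.41 TPM in every library. The paraspeckle proteins were present, with all 13 past the minimum. Their median differences were -0.25 and 0.10 in the contrasts of the Tut1 label, beside -0.08 and 0.05 over all genes. In Tut1 KO against control 1 of the 13 was above 0, where 40.1% of all genes were, and in double KO against Trp53 KO 10 of the 13, where 59.6% were. In the first, 1 was called, and it is named after its values were seen. It was Rbm14, with 34.7, 14.3, 33.1 and 16.6 TPM. Firre, Jpx, Ftx and Airn were outside the rule, with Firre at 11.9, 8.15, 6.34 and 7.71 TPM.

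Among the cytoplasmic decoys, Norad (chromosome 2, 156388065 to 156392979, against strand) binds and sequesters the Pumilio proteins. Its annotated transcript of 4915 bases held the letters TGTANATA, the core that Pumilio proteins read, 11 times on the sense strand. Of 9951 lncRNA transcripts searched, the longest of each gene, 2 held at least as many. Among the members 28.8% held 1 or more, against 12.6% of all lncRNA transcripts, most of which are not expressed at this level. The member transcripts are also longer, with a median of 2203 bases against 958, and longer transcripts have more places for a match. Per 10 kb, the members held 1.91 matches with Norad included, and all lncRNA transcripts 1.13. Rab10os came next to Norad with 4. Norad had 92.3, 70.9, 82.2 and 91.0 TPM, with the library labelled Tut1 KO the lowest. Pum2 had 58.6, 42.2, 51.6 and 59.2 TPM, in the same order of libraries apart from the highest.

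Oip5os1 had 30.7, 25.4, 27.8 and 32.4 TPM, a range of 0.34. Zswim8, the ubiquitin ligase subunit through which such sites lead to miRNA decay, had 35.2, 34.0, 35.2 and 29.4 TPM. The miR-7 level itself was not measured. Of the 10 listed partner proteins outside paraspeckles, 8 passed the minimum, with medians of -0.46 and -0.04 in the contrasts of the Tut1 label and 0 called in either. Epb41l4aos, also in the list of decoys, had 45.2, 75.2, 67.3 and 63.0 TPM, and the control was its lowest library.

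Epb41l4aos belongs to the members that carry small nucleolar RNAs (snoRNAs), which guide the modification of ribosomal RNA. Besides the Snhg genes left out by the rule, 7 members had a gene typed as snoRNA in the annotation inside on the same strand. They were 2410006H16Rik (Snord49a, Snord49b and Snord65), Zfas1 (Snord12), 1110038B12Rik (Snord52), Epb41l4aos, Rab26os (Snord60), Dancr (Snora26) and AI506816, whose inner gene has the miRNA symbol Mir3096. The first 6 had their lowest level in the control library, where 31.5% of the members and 18.2% of all genes had theirs. 2410006H16Rik, the second highest member, had 409 TPM in the control and 527, 577 and 475 TPM in the others. Zfas1 had 131.3, 172, 164 and 157 TPM, and Rab26os 36.0, 53.1, 44.9 and 46.2 TPM. 1110038B12Rik differed least of these, with 203, 226.5, 209 and 215 TPM. AI506816 had 311, 274, 293 and 319 TPM, and was lowest under the Tut1 KO label. The median of the 7 was 0.39 in Tut1 KO against control, 0.31 in Trp53 KO against control and 0.26 in double KO against control, which share the control. Without the control library it was 0.04 in double KO against Trp53 KO and -0.13 in double KO against Tut1 KO. Leaving out AI506816 moved these medians by little, to 0.41 in the first and -0.01 in double KO against Trp53 KO. None of the 7 reached the threshold.

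**Figure D4:**
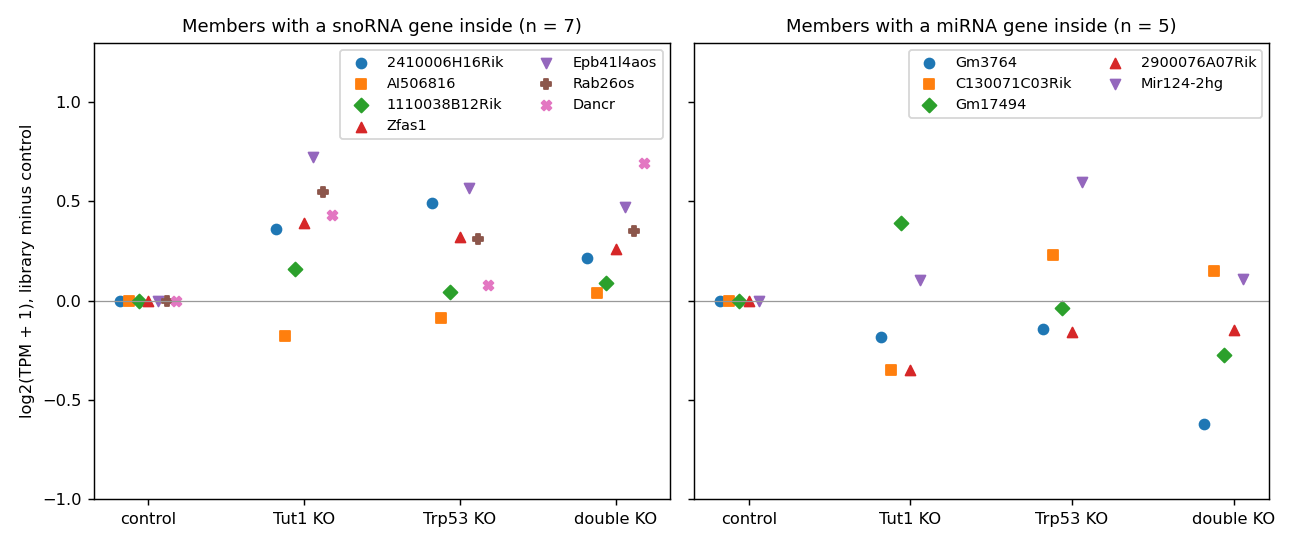
Difference of log2(TPM + 1) of each library from the control for the 7 members with a gene typed as snoRNA inside (left) and the 5 members with a miRNA gene inside (right), 1 point per member and library. In the left panel the points outside the control lie above 0 for 6 members, and AI506816 has points on both sides, and the right panel has no common direction.

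The 5 miRNA hosts had no common direction. Beside the miR-9 hosts they were Gm17494 (Mir760), 2900076A07Rik (Mir1839) and Mir124-2hg (Mir124a-2), the host of a copy of miR-124, a miRNA of neurons. Mir124-2hg had 11.0, 11.9, 17.2 and 12.0 TPM, and the Trp53 KO library was the highest. Gm17494 had 30.5, 40.3, 29.6 and 25.1 TPM, and 2900076A07Rik 16.3, 12.6, 14.5 and 14.7 TPM. Of the 18 miRNA hosts listed by name, Mir124-2hg alone was a member, and 8 were under 1 TPM in every library.

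Of the RNAs linked to p53, Pvt1 and Tug1 were members. Pvt1 (chromosome 15, 62037986 to 62378096, plus strand) neighbours Myc, and its transcription is known to be raised by p53. Cells with Trp53 held 31.8 TPM (control) and 35.9 TPM (Tut1 KO label) of it, those without Trp53 22.4 TPM (Trp53 KO) and 27.1 TPM (double KO). Both libraries with deleted Trp53 were lower, by 0.49 in Trp53 KO against control and 0.40 in double KO against Tut1 KO, under the threshold. Myc had 67.0, 64.4, 67.7 and 69.9 TPM and did not follow this order. Tug1 did not either, with -0.04 in Trp53 KO against control and 0.51 in double KO against Tut1 KO. The medians of Pvt1 and Tug1 in these contrasts were -0.27 and 0.06. Trp53cor1, the lincRNA-p21 gene beside Cdkn1a, was outside the rule with 2.94, 2.75, 1.32 and 1.36 TPM. Cdkn1a, a direct p53 target, had 477, 605, 196 and 179 TPM.

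By at least 0.3 in both contrasts of the Trp53 label, 3 members were lower (4.11%) and 2 higher (2.74%), beside 2.09% and 1.58% of all genes. The lower members were Pvt1, Dubr and A730063M14Rik. Dubr had 18.8, 16.0, 12.0 and 11.1 TPM, and the groups did not overlap. A730063M14Rik had 17.3, 19.7, 13.3 and 15.1 TPM. The higher members were C430049B03Rik, whose values are above, and 2610316D01Rik, which starts near the protocadherin gene Pcdh10 and had 13.5, 12.4, 20.7 and 15.8 TPM. With no size limit, 15 members (20.5%) were higher and 11 (15.1%) lower in both libraries with deleted Trp53 than in both others. The shares of all genes were 14.2% and 13.5%.

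The libraries also split by Xist, and this split crosses both labels. In both Xist-expressing libraries, those labelled Tut1 KO and Trp53 KO, 15 members (20.5%) were higher and 13 (17.8%) lower than in both others, where 11.6% and 28.5% of all genes were. Gm10076 was among the lower members. Of the 3 X-linked members, 5530601H04Rik had 11.2, 15.1, 16.2 and 10.6 TPM and was higher in the Xist-expressing libraries. The flat 2010204K13Rik was also counted as higher, although its levels under the Tut1 KO label (63.5 TPM) and in the double KO library (63.4 TPM) were almost equal. C430049B03Rik did not separate the libraries in this way. Every contrast of the Tut1 label and of the Trp53 label sets an Xist-expressing library against a library outside that pair. Within such a contrast the split and the label cannot be told apart. Double KO against control does not cross the split.

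Of the 17 listed RNAs of neural cells, 16 were found and 4 were members: Pantr1, Pantr2, C130071C03Rik and Peg13. Peg13, an imprinted RNA expressed from the paternal copy in brain, had 13.5, 11.7, 10.4 and 11.2 TPM. The 4 had median differences of -0.19 and 0.01 in the contrasts of the Tut1 label, and 0.11 and 0.18 in those of the Trp53 label. Sox2ot, which overlaps Sox2, had 5.09, 3.29, 2.68 and 3.22 TPM, although Sox2 itself lay between 293 and 385 TPM. Rmst, an RNA of neuronal differentiation, was under 1 TPM throughout. Six3os1, antisense beside the forebrain gene Six3, had 6.90, 15.8, 13.7 and 0.0956 TPM and was thus kept out by the control and double KO libraries. No member came from the list of ribonucleoprotein RNAs, which are made mostly by RNA polymerase III. The expressed genes of that list are typed as ribozyme or miscellaneous RNA, so the rule could not take them in at any level. Rn7sk had 4.86, 11.5, 11.6 and 5.18 TPM, which follows the Xist split.

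The minimum decided several members narrowly. Just inside it were Gm11266, whose lowest library had 10.3 TPM, AI480526 with 10.4 TPM and Peg13 with 10.4 TPM. Just outside were Gm13375, whose lowest library had 9.996 TPM, Gm48604 with 9.80 TPM and Gm49980 with 9.80 TPM. Gm49980 had 9.80, 19.5, 21.1 and 28.8 TPM and was kept out by the control alone.

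All 73 Ensembl IDs were found in GENCODE M21 (GRCm38). The members lay on 20 chromosomes, 3 of them on X and none on Y. The annotation typed 27 as intergenic lncRNA (lincRNA), 25 as processed transcript, 18 as antisense, 2 as bidirectional promoter RNA and 1 as sense intronic. The members were simpler than messengers. Their longest transcripts had a median of 2 exons and 2203 bases, against 8 exons and 3180 bases for protein-coding genes past the same minimum. Members with a single exon numbered 19 (26.03%, against 6.05%), and the median GC content was 46.7%, against 49.8%. Tmem134, Ptpmt1, Trmt61b and Ndufb1 carry symbols of protein genes although the table types these IDs as lncRNA.

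In some contrasts composition moved with the differences. In Tut1 KO against control, Spearman's rho across the 73 members was 0.28 with GC content and -0.28 with transcript length, and across 7240 protein-coding genes it was 0.43 and -0.37. In double KO against Tut1 KO it was -0.30 and 0.17 for members, and -0.49 and 0.31 for protein-coding genes. In the other 3 contrasts it lay between -0.10 and -0.01 for members. The protein-coding genes had -0.22 with GC content and 0.13 with length in double KO against Trp53 KO, 0.17 and -0.23 in Trp53 KO against control, and -0.06 and -0.11 in double KO against control. These are descriptions across genes of the same libraries, which are not independent. In Tut1 KO against control the median difference was 0.11 for the 24 shortest members and -0.04 for the 25 longest. Its part in the differences of single members was not tested.

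Many members sit close to another gene. For 27 a protein-coding gene started within 2000 bases on the other strand, 36 overlapped exons on the other strand, and 17 shared exon bases on the same strand. In 20 of the 27 pairs the protein-coding partner passed the minimum as well. Member and partner differed in the same direction in 11 of 20 pairs in Tut1 KO against control, 10 in double KO against Trp53 KO, 7 in Trp53 KO against control and 14 in double KO against Tut1 KO. Tug1 and Morc2a were alike in sign in all 4, with partner differences of -0.45, 0.12, -0.33 and 0.24. Pantr1 and Pou3f3 were not, since Pou3f3 had 73.2, 56.5, 64.9 and 76.5 TPM. A830082K12Rik, which starts near the cortical factor gene Nr2f1, had 30.5, 22.7, 17.1 and 34.7 TPM, whereas Nr2f1 had 52.5, 45.8, 56.6 and 62.8 TPM. Its difference of 0.98 in double KO against Trp53 KO was the closest to the threshold among members not called. Whether the counting used the strand of the reads is not given in the sources used here, so the values of overlapping pairs are uncertain. CAAA01066123.1 shares 99.8% of its exon bases with Rps6ka4 and cannot be read apart from it.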

How the data were processed

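Total RNA of cultured mouse neural stem cells was sequenced in 4 libraries, 1 per group. The authors deposited 1 table of TPM for all libraries. Per the labels, Trimmomatic, HISAT2 and StringTie were used with the mm10 build; the labels give no versions, and the HISAT2 and StringTie versions, the annotation behind this table and any pooling of cultures are not given in the sources used here. The kit in the labels is one for short reads and keeps strand, but long reads are named in the design text, so the platform is uncertain. TPM keeps no depth, so the depth of each library is unknown and no counting interval was given.

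Members were taken by biotype and TPM as described. Differences were taken on log2(TPM + 1), a scale that shrinks differences at low levels, and a gene was called at 1 or more in size. No test was run. The members, lists and thresholds were chosen with earlier results of these data known. Named members were the 10 highest, those called, those in the lists of RNA roles, those nearest the minimum and the 5 flattest. Others were named after their values were seen. Lists covered nuclear scaffold, decoy, miRNA host, p53-linked, neural and ribonucleoprotein RNAs, partner proteins and cell type markers.

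Positions, exons and transcript sequences came from GENCODE M21 (GRCm38, the same assembly as mm10), joined by Ensembl ID. Symbols of 6 members differed from it. Promoters and miRNAs came from RefSeq (GRCm38.p6). The calling code was tested on simulated data for Tut1 KO against control, with assumed noise and genes with a mean of at least 20 TPM. Changes of 1.5, above the threshold of 1, were planted in 200 of 6069 genes, and 99.0% were recovered. This checks the code and does not show which differences these libraries could reveal. Python 3.11.15, numpy 2.4.6, pandas 2.3.3 and matplotlib 3.10.9 were used. Alternatives were pseudocounts of 0.1 and 5, medians set to 0, quantile normalization, rescaling without mitochondrially encoded and ribosomal protein genes (pseudogenes included) or to protein-coding genes, other TPM minimums, members without shared exons and a threshold of 0.58. One gene of the partner protein list is not reported here by itself.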

Additional observations from a re-analysis of the deposited data

Results flagged for a closer look

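Gm10076, the copy of Rpl41, differed in opposite directions in the contrasts that share no library. The difference Tut1 KO against control, reduced by double KO against Trp53 KO, was -4.1 on the log2(TPM + 1) scale, and Trp53 KO against control, reduced by double KO against Tut1 KO, was the same -4.1, since both are built from the same 4 libraries. With 1 library per group the difference was not tested. The control and double KO libraries, with 677 and 555 TPM, lay above the other libraries, with 266 TPM under the Tut1 KO label and 81.1 TPM in Trp53 KO. Summed with Rpl41, the differences in the 5 contrasts lay between -0.18 and 0.02.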

How the results depend on the processing

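The counts of called members were small and moved with the choice of members and threshold more than with the scaling. In the order Tut1 KO against control, double KO against Trp53 KO, Trp53 KO against control, double KO against Tut1 KO and double KO against control, they were 2, 1, 2, 2 and 1. A threshold of 0.58 gave 7, 5, 6, 8 and 6 called members, where 8.52%, 5.12%, 5.22%, 7.51% and 5.12% of all genes passed. A mean of 10 TPM in place of the minimum let in genes that are near 0 in some libraries, such as Xist and Erdr1. It gave 5, 4, 6, 6 and 5 of 99 genes. A minimum of 5 TPM gave 3, 2, 3, 3 and 3 of 148 genes. A minimum of 20 TPM (36 genes), and members without shared exons (56 genes), each gave 1 in double KO against Tut1 KO. No share of all genes was taken for these sets of genes. A pseudocount of 0.1 gave 2 in double KO against Trp53 KO, with A830082K12Rik added, and 3 in double KO against Tut1 KO, with Gm15417 added. With medians set to 0, Gm15417 took the place of Gm10076 in double KO against Tut1 KO. An alternative chosen after seeing the data left out Gm10076 and the IDs with symbols of protein genes, and gave 1, 0, 1 and 1 in the first 4 contrasts. The median difference of the members in Tut1 KO against control became 0.15 under quantile normalization, and it changed sign under 2 of 11 alternatives, to -0.02 at the lowest. At 2 decimals, the members' median also changed sign under 1 alternative in double KO against Trp53 KO (to 0.02), 2 in double KO against Tut1 KO (to -0.07 at the lowest) and 1 in double KO against control (to -0.01). The neural list changed sign under 2 of 5 in double KO against Trp53 KO (to -0.03), and the p53-linked list under 2 of 5 in Tut1 KO against control (to 0.02) and in double KO against Tut1 KO (to -0.03). In Tut1 KO against control, quantile normalization also moved the medians of the decoy list to -0.15 and of the miRNA host list to 0.25. A pseudocount of 5 moved the miRNA host list, which rests on Mir124-2hg alone, to -0.39 in double KO against Trp53 KO and to 0.47 in Trp53 KO against control. The cause of these moves was not tested. No called difference changed sign under the alternatives run. Setting medians to 0 shifted the median of all genes by at most 0.08. No paired analysis was possible because each group had 1 library. Depth is unknown, so no limit from counting could be given.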
